A study of Arabidopsis thaliana with 24 samples.

Results

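The 9 genes described here mark the shoot meristem, the organ boundaries around it and the organs it gives off, and were followed in the first days of the Arabidopsis thaliana embryo. They were named by locus, for their known roles, with earlier results of these data known. They are the boundary genes CUC1, CUC2 and CUC3, the class I KNOX homeobox genes STM, KNAT1, KNAT2 and KNAT6, and the organ genes AS1 and AS2, 9 of 32399 loci listed. RNA levels were measured in 24 libraries, 3 for each of 8 groups. The series asks what each parent contributes to the apical and basal lineages of the early embryo.

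The meristem of the shoot is laid down between the cotyledons. The CUC proteins are NAC transcription factors that keep neighbouring organs apart and are needed to switch on STM. STM and its class I KNOX relatives keep cells undifferentiated. AS1, a MYB protein, and AS2, a LOB-domain protein, act together in leaves and cotyledons and repress KNAT1, KNAT2 and KNAT6. miR164 guides the cleavage of CUC1 and CUC2 transcripts and so limits the size of the boundary.

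All embryos were F1 hybrids of 2 laboratory accessions, Col (Columbia) and Ler (Landsberg erecta). Each group had either a Col mother with a Ler father or a Ler mother with a Col father. The apical cell and the basal cell came from embryos of 2 cells per the sample labels, while the series text names an earlier stage for them. The embryo proper, from which the plant grows, and its supporting stalk, the suspensor, came from embryos of 32 cells. No mutant and no treatment was used, and the plants grew in a greenhouse with long days. Nextera XT or NEBNext is named as the library kit for 4 libraries, and Nextera XT alone for the other 20. The 4 are 3 of the basal cell (replicate 3 of the Col mother, replicates 2 and 3 of the Ler mother) and 1 of the suspensor (replicate 1 of the Ler mother).

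Levels are FPKM, that is fragments scaled by transcript length in kilobases and by the M fragments mapped. Differences are on the log2(FPKM + 1) scale, where differences of weakly expressed genes are understated. They were tested with limma on the 18206 loci that reached an FPKM of 1 in at least 3 libraries, and were called at a Benjamini-Hochberg adjusted p under 0.05. The design text speaks of independent biological replicates but the labels name no plants, so p-values measure the spread between these samples. In such bulk samples fewer cells of a type and less RNA per cell cannot be told apart.

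The libraries held 12611 to 15366 loci at an FPKM of at least 1, and about 13.7 to 26.9 M fragments as estimated from the steps between low values. The summed FPKM of WOX2, DRN and HAN, markers of the apical lineage, was 272 to 578 in the apical cell, 86.2 to 180 in the basal cell, 200 to 310 in the embryo proper and 0.14 to 9.84 in the suspensor. That of the basal lineage markers WOX8, WOX9 and PIN7 was 26.8 to 99.3, 510 to 664, 77.4 to 122 and 553 to 779 in the same order. Replicates varied most in the suspensor. The median SD of a gene there was 0.57 with a Col mother and 0.75 with a Ler mother on the log2 scale, against 0.26 and 0.22 in the embryo proper.

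The sequences that tie CUC1 and CUC2 to miR164 are shown first, read from the TAIR10.1 genome of RefSeq. The mature miRNA lines are 5′ to 3′ with the seed, bases 2 to 8, in capitals, and miR164b-5p has the same sequence as miR164a. The target lines are the sense strand of the transcript, with capitals at each base that differs from the perfect complement of miR164a given on the third line.
miR164a: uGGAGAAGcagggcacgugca
miR164c-5p: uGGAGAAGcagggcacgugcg
perfect complement: tgcacgtgccctgcttctcca
CUC1 site: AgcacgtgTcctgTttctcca
CUC2 site: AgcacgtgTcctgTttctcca
CUC3 best window: CAcaTgCTAcTAgAttctcca
The sites of CUC1 (chr3:5111137-5111157, plus strand) and CUC2 (chr5:21902301-21902321, minus strand) are the same 21 bases, and both lie in coding sequence in exon 3 of 3. Both pair at 18 of 21 positions. Only 6 of 31342 loci searched, 0.0191%, hold a window as good or better. The best window of CUC3 (chr1:28672053-28672073, minus strand) pairs at 12 of 21 positions, which 79.4% of loci equal or exceed, so it does not stand out. The precursor locus MIR164a was listed at 0 in all 24 libraries, MIR164b at 0.67 in basal cell Ler replicate 1 and at 0 elsewhere, and MIR164c at 0.78 in suspensor Ler replicate 1 and at 0 elsewhere. Libraries of this kind do not measure the mature miRNA.

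The 9 genes fell into 4 patterns. CUC1, CUC2 and CUC3 stood highest in the embryo proper, AS2 stood highest in the suspensor, STM, KNAT1 and KNAT2 were at or below an FPKM of 0.53 in all libraries, and KNAT6 and AS1 were found in all 4 cell types. Of the 9, 6 passed the filter on low values. CUC1 and CUC2 passed it through the embryo proper alone, and AS2 through the suspensor and basal cell alone. Their differences from the other cell types thus follow in part from the filter, and the counts below lend no support by themselves.

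**Figure D1:**
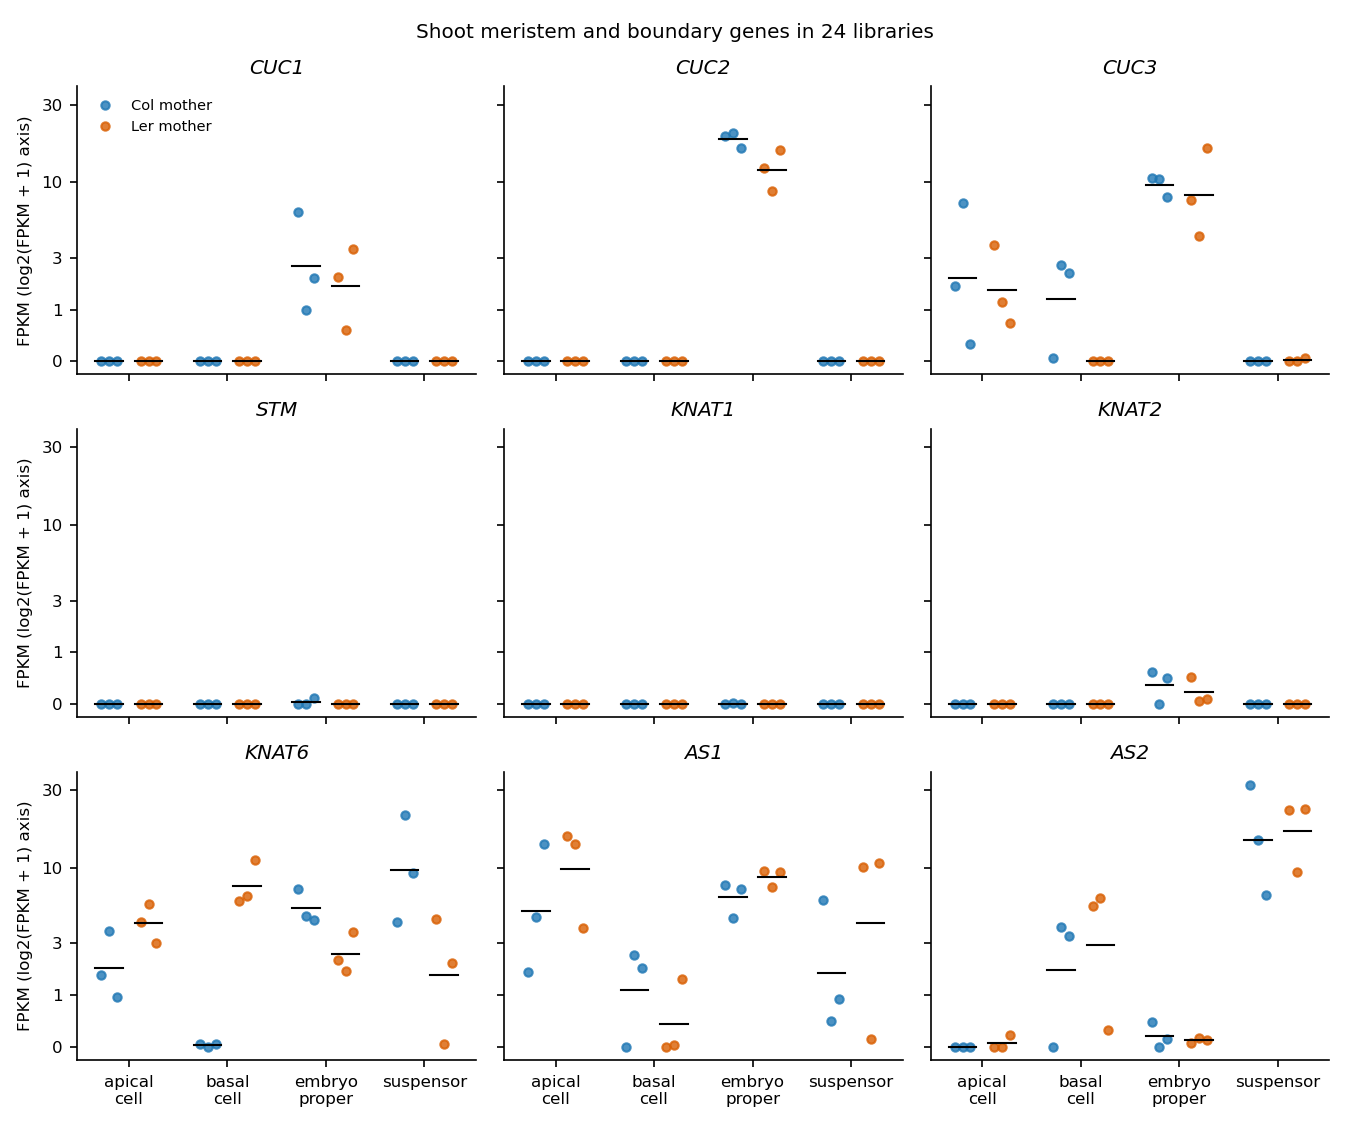
FPKM of the 9 genes in 24 libraries, 1 panel a gene, on a log2(FPKM + 1) axis labelled in FPKM, with 1 point a library, blue for a Col and orange for a Ler mother, and a black line at the mean of each group of 3. CUC1 and CUC2 lie at 0 outside the embryo proper, STM and KNAT1 never exceed 0.08, and KNAT6 in the basal cell is split by cross, 0 to 0.04 against 6 to 11.2.

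CUC2 (AT5G53950, chr5:21901704-21903854, minus strand) was the most abundant of the CUC genes in the embryo proper. Its FPKM was 19.5, 20.1 and 16.4 in the libraries with a Col mother and 12.3, 8.74 and 15.9 in those with a Ler mother. It was listed at 0 in all 18 libraries of the other cell types, so the groups did not overlap and no fold change can be given. The difference was 3.99 against the suspensor (SE 0.22, limma adjusted p = 1.6e-12) and the same against the apical cell (limma adjusted p = 7.71e-12). The SE pools the spread over all groups, and those at 0 throughout have none, so these p-values are too small for the embryo proper. With only the groups compared the limma adjusted p was 3.78e-07 and 1.77e-07. These fits still hold groups at 0 throughout, so these values too are too small. The 3 libraries with a Col mother were all above the 3 with a Ler mother, but this was not called (log2 0.60, 95% interval -0.06 to 1.26, limma adjusted p = 1).

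CUC1 (AT3G15170, chr3:5109782-5111608, plus strand), which overlaps in function with CUC2, was low and uneven where it was found. Its FPKM in the embryo proper was 6.40, 1.00 and 2.06 with a Col mother and 2.09, 0.52 and 3.47 with a Ler mother. All 6 values lay above the 18 zeros listed in the other cell types. The difference was 1.65 against the suspensor (SE 0.28, limma adjusted p = 3.55e-05) and against the apical cell (limma adjusted p = 0.000104). Here too the SE pools in groups at 0 throughout. With only the groups compared the limma adjusted p was 0.00207 and 0.00264, still with groups at 0 in the fit and so still too small. CUC2 exceeded CUC1 in 6 of 6 embryo proper libraries, by a ratio of 3.05 to 20.1 with a median of 6.91. The genes that share a miR164 site thus differed in level.

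CUC3 (AT1G76420, chr1:28671806-28674045, minus strand), which carries no such site, was the one CUC gene listed above 0 in the embryo of 2 cells. In the apical cell it was at 1.74, 7.28 and 0.27 with a Col mother and 3.73, 1.20 and 0.66 with a Ler mother. In the basal cell it was at 0.05, 2.61 and 2.28 with a Col mother and at 0 in all 3 libraries with a Ler mother. The apical and basal values overlapped, and the difference was not called (log2 0.89, 95% interval 0.01 to 1.77, limma adjusted p = 0.137). There were 2 alternatives that did call it, a pseudocount of 0.1 and the fit without apical cell Col replicate 3, the lowest apical library, and the lowest adjusted p over the alternatives was 0.0309.

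In the embryo proper CUC3 was at 10.6, 10.4 and 8.00 with a Col mother and 7.68, 4.34 and 16.3 with a Ler mother. In the suspensor 5 of 6 libraries were at 0 and the other at 0.04. The 6 embryo proper libraries were above all 6 of the suspensor, by 3.30 (SE 0.43, limma adjusted p = 8.91e-07), and 5 of 6 were above all apical libraries. Against the apical cell the difference was 1.82 (SE 0.43, limma adjusted p = 0.00265), and it missed the threshold within the Col cross alone (limma adjusted p = 0.0525). The apical cell itself was above the suspensor by 1.48 (limma adjusted p = 0.00573), a call lost with library weights and within the Ler cross (the highest adjusted p over the alternatives was 0.0797). The ratio of CUC2 to CUC3 in the embryo proper was 0.976 to 2.05, with a median of 1.88, and was above 1 in 5 of 6 libraries.

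The order of CUC3 was embryo proper, apical cell, basal cell and suspensor. Only the first step was called. Basal cell and suspensor differed by 0.60 (95% interval -0.28 to 1.48, limma adjusted p = 0.269). STK, an ovule and seed coat gene, moved with the CUC genes, at 12.2 to 27.5 in the embryo proper and at most 0.05 in the apical cell, though it also reached 13.9 in the suspensor, where the CUC genes were at 0 to 0.04. The other seed coat markers were at most 0.72 in the embryo proper, with TT2 and TT10 at 0, and their part in the result was not tested.

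The excess of the CUC genes in the apical lineage was larger at 32 cells than at 2 cells, as tested by the interaction of lineage and stage. The difference of differences was 3.99 for CUC2 (limma adjusted p = 1.94e-09), 2.41 for CUC3 (SE 0.60, limma adjusted p = 0.00312) and 1.65 for CUC1 (limma adjusted p = 0.00235). For CUC1 and CUC3 the call was lost within the Ler cross alone (limma adjusted p = 0.0603 and 0.125). Since CUC1 and CUC2 were at 0 in both cells of the early embryo, theirs equals the difference between embryo proper and suspensor. For these genes the interaction is thus no separate test, and it follows in part from the filter. Their SE pools in groups at 0 throughout, so their p-values are too small and lend no support by themselves.

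The upstream sequences of the CUC genes are shown because the 3 genes moved together. Each holds the 250 bases before the annotated start of the transcript and the first 50 bases of the transcript, in the direction of the gene. Capitals mark any match, on either strand, to TGACAG, a core bound by TALE homeodomain proteins such as KNOX factors, to TGTCTC, an auxin response element, or to TATAAA, the TATA box.
CUC1 (chr3:5109532-5109831): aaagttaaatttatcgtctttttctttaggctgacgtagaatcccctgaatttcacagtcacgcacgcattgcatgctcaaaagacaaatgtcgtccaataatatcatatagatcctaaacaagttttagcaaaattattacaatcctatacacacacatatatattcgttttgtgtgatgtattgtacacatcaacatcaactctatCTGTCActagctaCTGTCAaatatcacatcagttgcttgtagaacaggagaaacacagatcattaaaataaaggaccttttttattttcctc
CUC2 (chr5:21903805-21904104): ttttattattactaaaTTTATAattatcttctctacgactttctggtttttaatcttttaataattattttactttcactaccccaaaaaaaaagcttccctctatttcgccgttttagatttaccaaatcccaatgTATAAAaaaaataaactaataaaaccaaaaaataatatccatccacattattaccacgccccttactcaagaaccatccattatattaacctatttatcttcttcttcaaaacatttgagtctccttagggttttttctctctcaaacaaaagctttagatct
CUC3 (chr1:28673996-28674295): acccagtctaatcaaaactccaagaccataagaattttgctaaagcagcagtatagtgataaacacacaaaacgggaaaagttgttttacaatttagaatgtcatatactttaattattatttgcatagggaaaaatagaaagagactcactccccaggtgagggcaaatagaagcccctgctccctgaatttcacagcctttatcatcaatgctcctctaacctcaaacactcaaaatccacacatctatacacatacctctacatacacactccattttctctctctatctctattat
CUC1 holds TGACAG at 2 places, both on the reverse strand, and CUC2 holds TATAAA at 2. CUC3 holds none of the 3 motifs in this window. Of 27443 promoters of this length, 6.996% hold TGACAG, 14.2% TGTCTC and 52.1% TATAAA. Of the 9 genes CUC1 and AS1 hold TGACAG, KNAT2 and AS1 hold TGTCTC, and 6 hold TATAAA.

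Among the class I KNOX genes, STM (AT1G62360, chr1:23058582-23062063, minus strand), the central gene of meristem maintenance, was listed at 0 in 23 of 24 libraries and at 0.08 in embryo proper Col replicate 3. KNAT1 (AT4G08150, chr4:5147699-5151159, minus strand), also known as BREVIPEDICELLUS, was listed at 0 in 23 libraries and at 0.02 in embryo proper Col replicate 2. At these depths 1 fragment is worth about 0.0218 to 0.0429 FPKM of STM and 0.0184 to 0.0362 of KNAT1. STM transcripts were thus not detectable beyond a few fragments, also in the embryo proper libraries that held CUC2 at 8.74 to 20.1.

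KNAT2 (AT1G70510, chr1:26576486-26582879, plus strand) was likewise above 0 in embryo proper libraries alone, among the 24. It was at 0.53, 0 and 0.41 with a Col mother and 0.44, 0.04 and 0.07 with a Ler mother, and at 0 in the other 18 libraries. Of the 6 embryo proper libraries, 5 were above 0 and 1 was at 0. It failed the filter. With no filter its difference was 0.30 against the suspensor (limma adjusted p = 0.0112) and against the apical cell (limma adjusted p = 0.0246), while STM was not called (limma adjusted p = 0.376 against the suspensor). The SE of KNAT2 pools in groups at 0 throughout, so its p-values are too small for the embryo proper. Its interaction of lineage and stage was not called with no filter (limma adjusted p = 0.101).

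KNAT6 (AT1G23380, chr1:8297241-8302651, minus strand), which acts with STM in the meristem and at the boundaries, was the one class I KNOX gene found in all 4 cell types. Its mean ± SD (n = 6) was 6.90 ± 7.64 in the suspensor, 4.02 ± 1.98 in the embryo proper, 3.98 ± 4.69 in the basal cell and 3.24 ± 1.79 in the apical cell. None of the 6 differences between cell types was called, with adjusted p from 0.114 to 0.775, but 3 of them were called under some alternatives. Embryo proper against basal cell, at 0.66 (limma adjusted p = 0.247), was called at a pseudocount of 0.1 (adjusted p = 0.0417), with library weights (0.0304), with only the groups compared (0.0414) and within the Col cross, where it was 2.64 (0.00215). Apical cell against suspensor was called within the Col cross, at -1.89 (limma adjusted p = 0.015). Suspensor against basal cell was called at a pseudocount of 0.1 (limma adjusted p = 0.0498), without suspensor Col replicate 1 (0.0424), without suspensor Ler replicate 2 (0.0193) and within each cross, with opposite signs. On the log scale the order was suspensor, embryo proper, apical cell and basal cell, and no neighbours differed beyond their spread. Embryo proper and suspensor differed by -0.16 (95% interval -1.03 to 0.70).

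In the basal cell KNAT6 followed the cross. It was at 0.04, 0 and 0.04 in the libraries with a Col mother and at 6, 6.56 and 11.2 in those with a Ler mother. The groups were far apart, and 0.04 is about 1 fragment. The difference was -3.07 (SE 0.59, limma adjusted p = 0.00265), the 1 called among the 6 genes in a comparison that called 7.06% of all loci and 3.1% as lower with a Col mother. An exact two-sided permutation test gave p = 0.1, the smallest that 3 against 3 libraries allow.

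The labels word the library kit in another way for 3 of these libraries, replicates 2 and 3 with a Ler mother and replicate 3 with a Col mother, and for 1 suspensor library. Without the 4 libraries of the other wording, which leaves 1 library with a Ler mother that is assumed to vary like the rest, the difference was -2.78 and was not called (limma adjusted p = 0.0709). Of the other 36 alternatives run none ended the call, but many of these left out a library of another cell type. Such a fit cannot move the estimate and alters only its SE and p. CUC3 went the other way in the basal cell, with 3 libraries above 0 for a Col mother and none for a Ler mother, but was not called (log2 1.21, limma adjusted p = 0.243).

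In the suspensor KNAT6 was at 4.32, 21.2 and 9.29 with a Col mother and at 4.51, 0.04 and 2.07 with a Ler mother. Here the crosses overlapped and the 2 highest values belonged to the Col mother. The difference was 2.04 (95% interval 0.82 to 3.26) and missed the threshold (limma adjusted p = 0.0513). There were 10 alternatives that called it, with adjusted p down to 0.0119, whereas a fit of the 2 suspensor groups alone gave an adjusted p of 0.674. The comparison called 4.2% of all loci. KNAT6 varied there with an SD of 1.03 and 1.22 on the log2 scale, against 0.03 and 0.44 in the basal cell.

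In the embryo proper KNAT6 was at 7.22, 4.78 and 4.48 with a Col mother and at 2.20, 1.76 and 3.68 with a Ler mother, without overlap but not called (log2 0.89, limma adjusted p = 1). The comparison of crosses in the embryo proper called 0 of 18206 loci, 0%. In the apical cell it was at 1.61, 3.74 and 0.94 against 4.32, 5.80 and 3.02, which overlap (log2 -0.87, limma adjusted p = 0.890). The comparison there called 0.428% of loci.

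Whether the difference between the crosses varied with the cell type was tested by contrasts added after the values were seen. The difference between crosses in the basal cell less that in the suspensor was -5.11 (limma adjusted p = 0.00122; 5.62% of loci were called), and with only the 4 groups compared the adjusted p was 0.046. The basal less the apical cell gave -2.21 (limma adjusted p = 0.22), and the suspensor less the embryo proper 1.15 (limma adjusted p = 0.806). The contrast of basal cell and suspensor can be split by cross, from the same group means, which adds no further support. With a Col mother the suspensor exceeded the basal cell in KNAT6 by 3.38 (limma adjusted p = 0.000124), and with a Ler mother it was lower by a difference of -1.73 (limma adjusted p = 0.0248), so the pooled difference of 0.82 describes neither cross.

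**Figure D2:**
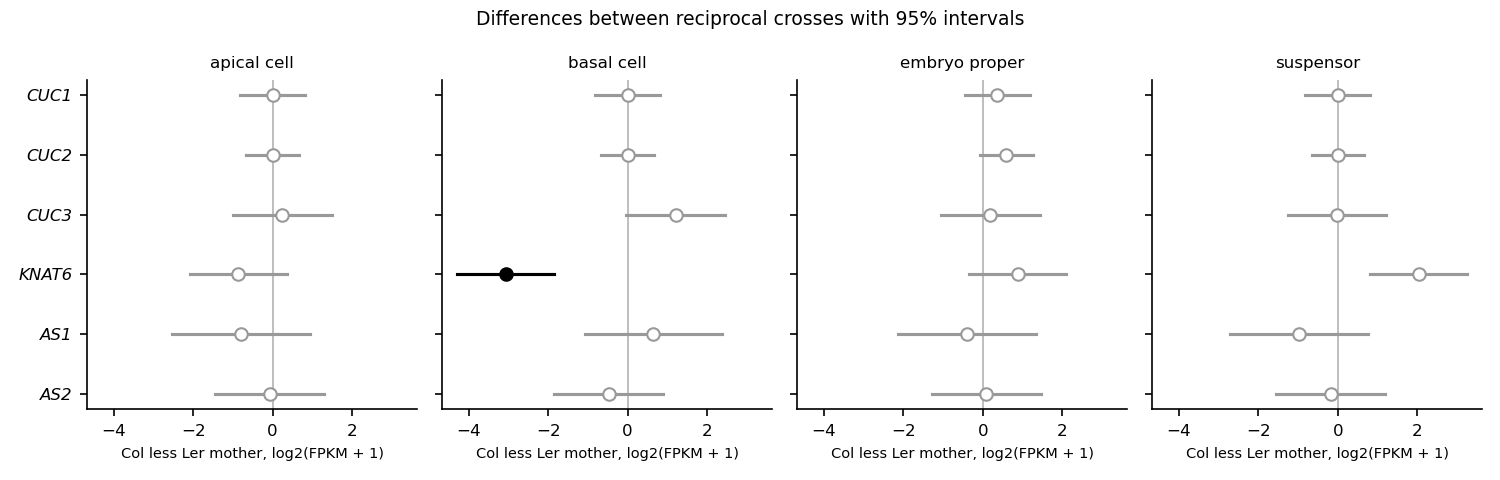
Difference between a Col and a Ler mother for the 6 tested genes in each cell type, on the log2(FPKM + 1) scale, as the limma estimate (circle) with its 95% interval (line), black and filled where called and grey where not. KNAT6 in the basal cell, at -3.07, is the one called difference, and KNAT6 in the suspensor lies on the other side of 0, at 2.04.

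For the organ genes, AS2 (AT1G65620, chr1:24398143-24400989, plus strand) was highest in the basal lineage. In the suspensor it was at 32.4, 15.0 and 6.60 with a Col mother and 22.7, 9.39 and 23.0 with a Ler mother. In the embryo proper it was at 0.40, 0 and 0.11 with a Col mother and 0.06, 0.12 and 0.09 with a Ler mother. The groups were far apart, and the difference between embryo proper and suspensor was -3.92 (SE 0.47, limma adjusted p = 3.06e-07). AS2 passed the filter through the basal lineage alone, so its calls between the lineages follow in part from the filter.

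In the basal cell AS2 was at 0, 3.97 and 3.43 with a Col mother and 5.58, 6.30 and 0.25 with a Ler mother. In the apical cell 5 of 6 libraries were at 0 and the other at 0.17. Of the 6 basal libraries, 5 were above all apical ones, and the difference between apical and basal cell was -1.69 (SE 0.47, limma adjusted p = 0.0107). The call was lost at a pseudocount of 5 and within each cross alone (the highest adjusted p over the alternatives was 0.147). All 6 suspensor libraries were above all 6 basal ones, and the difference was 2.36 (limma adjusted p = 0.000271). With only the groups compared the limma adjusted p was 0.0175.

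The order of AS2 was suspensor, basal cell, embryo proper and apical cell, of which the last pair did not differ beyond its spread (log2 0.13, 95% interval -0.84 to 1.10). The gap between the lineages was wider at the later stage, with an interaction of -2.23 (SE 0.66, limma adjusted p = 0.0114). This call was lost at a pseudocount of 0.1 and within each cross alone (the highest adjusted p over the alternatives was 0.13).

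As a sum, markers of endosperm, the tissue around the embryo, stood higher in the basal lineage, as AS2 did. The summed FPKM of 5 such markers was 5.51 to 42.6 in the apical cell, 59.4 to 419 in the basal cell, 1.16 to 3.12 in the embryo proper and 69.9 to 249 in the suspensor. Most of it was SUC5, a sucrose carrier that was at 50.2 to 248 in the suspensor. ZOU and PHE1, regulators specific to endosperm, were at 0 in all 24 libraries, FWA was at 0 in the suspensor, and AGL62, an endosperm MADS gene, was at 0.90 to 30.5 there. In the basal cell AGL62 was at 12.0, 13.6 and 0 with a Col mother and 9.65, 0 and 0 with a Ler mother. From basal cell to suspensor the mean of SUC5 fell from 250 to 161 and that of AGL62 rose from 5.88 to 11.4, while AS2 rose. The part of these markers in the AS2 result was not tested.

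AS1 (AT2G37630, chr2:15781232-15783480, minus strand), the partner of AS2, was not arranged in the same way. In the apical cell it was at 1.73, 4.67 and 14.1 with a Col mother and 15.7, 14.1 and 3.92 with a Ler mother. In the basal cell it was at 0, 2.42 and 1.88 with a Col mother and 0, 0.03 and 1.48 with a Ler mother. Of the 6 apical libraries, 5 were above all basal ones, and the difference was 2.25 (SE 0.59, limma adjusted p = 0.00743). Within the Col cross alone it was not called (limma adjusted p = 0.252).

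In the embryo proper AS1 was even, at 7.68, 4.64 and 7.28 with a Col mother and 9.48, 7.49 and 9.32 with a Ler mother. In the suspensor it was at 6.16, 0.41 and 0.90 with a Col mother and 10.1, 0.11 and 10.7 with a Ler mother. The suspensor libraries thus fell apart, with 3 below 1 and 3 within or above the range of the embryo proper, and the difference was not called (log2 1.18, 95% interval -0.05 to 2.41, limma adjusted p = 0.103). Without suspensor Col replicate 1 or without suspensor Ler replicate 3, both high libraries, it was called, with an adjusted p of 0.0378 at the lowest. Embryo proper and apical cell differed by 0.06 (95% interval -1.17 to 1.29).

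The 3' end of AS1 and that of the actin gene ACT1, on the other strand, overlap by 330 bases, and 281 of 1871 words of 50 bases in AS1 transcripts, 15.0%, also occur in ACT1 transcripts. How strand and shared reads were treated is not given, so reads of AS1 and ACT1 from that stretch may not have been told apart. ACT1 was at 63.7 to 249 in the 24 libraries. In the 2 basal libraries where AS1 was listed at 0, ACT1 stood at 176 and 189.9. None of the other 8 genes shared a word of 50 bases with another locus.

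The balance of the pair was opposite in the lineages. AS1 exceeded AS2 in 6 of 6 apical cell and 6 of 6 embryo proper libraries. AS2 exceeded AS1 in 6 of 6 suspensor and 4 of 6 basal cell libraries, with AS1 higher in 1 basal library and both at 0 in the other.

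**Figure D3:**
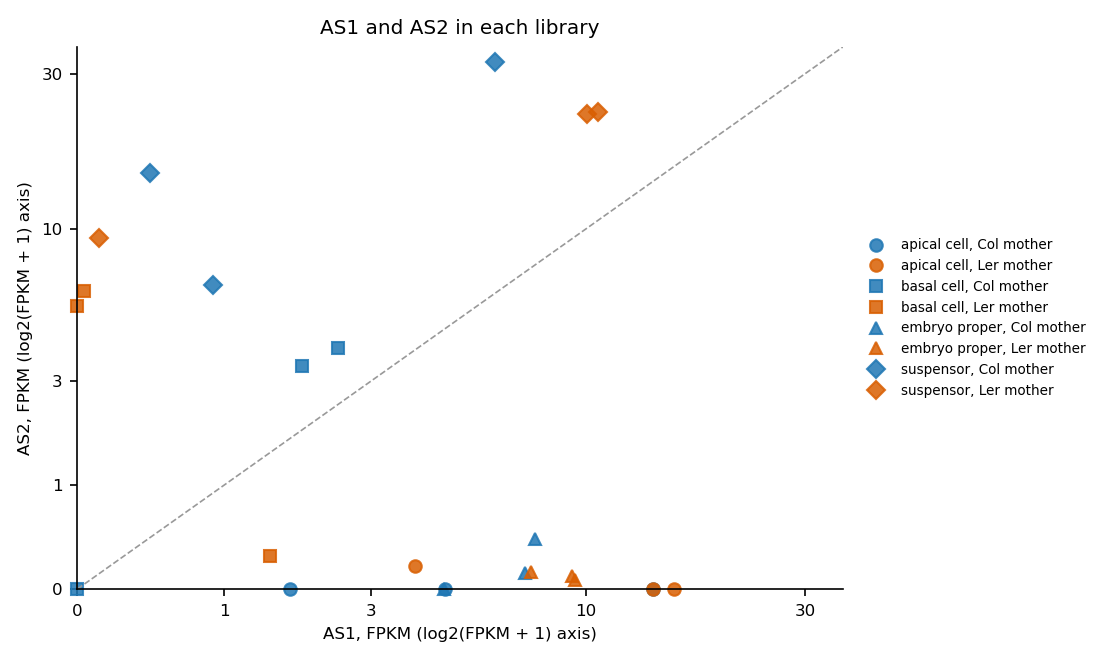
AS2 against AS1 in each of 24 libraries, both in FPKM on log2(FPKM + 1) axes, with 1 symbol for each cell type, blue for a Col and orange for a Ler mother, and a dashed line where the levels are equal. The 12 libraries of the apical lineage lie along the AS1 axis with AS2 at most 0.40, and the 6 of the suspensor lie above the line.

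**Figure D4:**
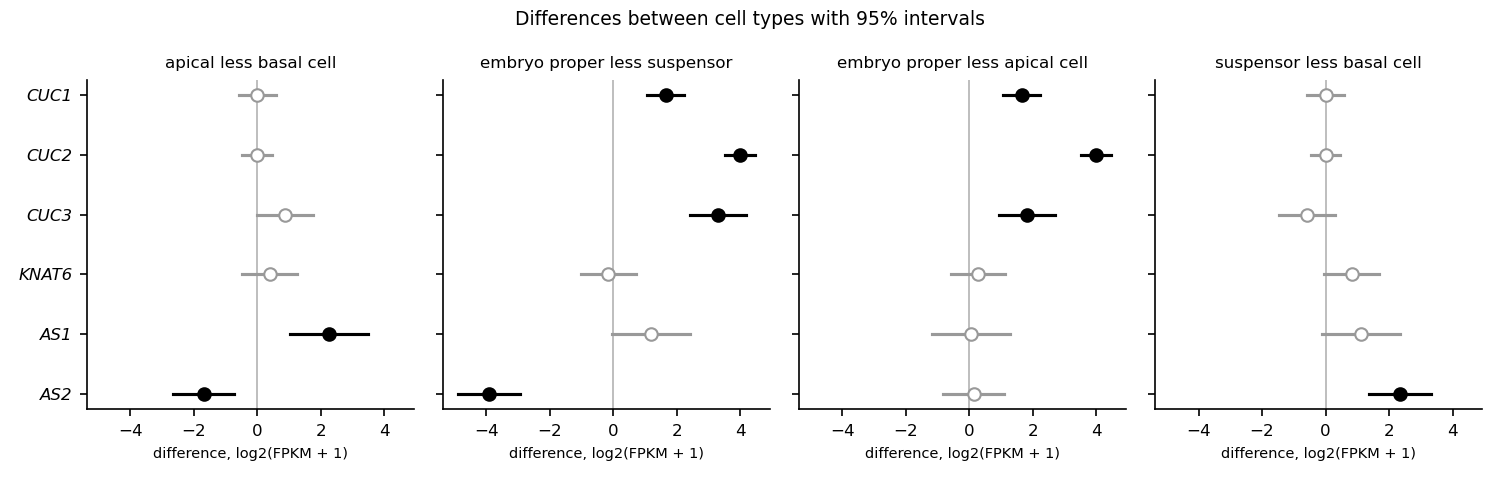
Differences between cell types for the 6 tested genes on the log2(FPKM + 1) scale, as the limma estimate (circle) with its 95% interval (line), black and filled where called and grey where not. The 3 CUC genes lie to the right in both comparisons of the embryo proper, and AS2 lies at -3.92 against the suspensor and at 2.36 for suspensor less basal cell.

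Counted over the 6 tested genes, apical against basal cell called 1 gene higher (AS1) and 1 lower (AS2), against 24% of all loci (11.8% higher and 12.2% lower). Embryo proper against suspensor called 3 higher (the CUC genes) and 1 lower (AS2), against 50.9% of all loci (28.5% higher and 22.4% lower). Embryo proper against apical cell called the 3 CUC genes higher, against 21.9% of all loci, 10.2% as higher. Suspensor against basal cell called AS2 higher, against 44.9% of all loci, 18.9% as higher. These comparisons share libraries and so are not independent.

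Across the lineages and stages at once, apical cell against suspensor called CUC3 higher and AS2 lower, with 50.2% of all loci called (28.9% higher and 21.4% lower). Embryo proper against basal cell called the 3 CUC genes and AS1 higher and AS2 lower, with 32.3% called (14.9% higher and 17.4% lower). CUC3 was higher there by 2.70 (limma adjusted p = 2.93e-05), AS1 by 2.31 (limma adjusted p = 0.00427), and AS2 differed by -1.56 (limma adjusted p = 0.0132). The AS2 call was lost at a pseudocount of 5, with the kit wording as a covariate and within each cross, and the AS1 call within the Col cross. The interaction called the 3 CUC genes as higher and AS2 as lower, with 35.5% of all loci called (19.3% higher and 16.2% lower). Between the crosses, over all cell types, 0 of the 6 were called, with 0.791% of all loci called.

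A further 44 genes tied to these pathways were read out in the same way, in 7 lists. Of the 44, 13 passed the filter, 9 were at 0 in all libraries and 23, those 9 among them, stayed under 1. In embryo proper against suspensor 4 were called higher and 1 lower, against 50.9% of all loci called (28.5% higher and 22.4% lower), so that the 5 of 13 were not above the share over all loci, and the median difference of the 13 was 0.01 against 0.12 over all tested loci. In embryo proper against apical cell 4 were higher and 2 lower, against 21.9% called over all loci. In apical against basal cell (24% called) and in suspensor against basal cell (44.9% called) 1 was higher and 1 lower. WUS, GA2OX2 and LBD3 passed the filter through the embryo proper, JLO through the apical cell with a Ler mother and BLH3 through the basal cell. KNAT7 passed it through the apical and basal cell. The counts thus include differences that follow in part from the filter.

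Of 7 stem cell and hormone genes linked to class I KNOX proteins, 2 passed the filter on low values, both through the embryo proper alone. Their calls there thus follow in part from the filter and lend no support by themselves. WUS, the homeobox gene of the stem cell niche, was at 2.20, 1.95 and 4.46 with a Col mother and 7.53, 3 and 3.92 with a Ler mother, and at 0 in the other 18 libraries (log2 2.18 against the suspensor, limma adjusted p = 3.53e-08). It was thus, like CUC2, found in all 6 embryo proper libraries, in which STM was at 0 to 0.08. GA2OX2, a gibberellin-inactivating enzyme, was at 7.42, 0.06 and 9.72 with a Col mother and 1.94, 0.61 and 3.95 with a Ler mother (log2 1.86, limma adjusted p = 0.000406). CLV3, the peptide gene of the stem cells, and GA20OX1, a gibberellin synthesis gene that KNOX proteins repress, were at 0 in all libraries.

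Among 5 LBD relatives of AS2, 2 were tested. LBD3 was at 5.29 to 19.7 in the embryo proper and at 0 in all but 1 suspensor library, which stood at 10.4 (log2 2.50, limma adjusted p = 4.99e-05). It was called in the direction opposite to AS2. ASL1, the other one tested, was not called (log2 -1.03, limma adjusted p = 0.0505) and ran the same way as AS2, with 4 of 6 suspensor libraries above all embryo proper ones. Of 5 class II KNOX genes, which act in differentiating tissue, counting the KNOX relative KNATM, 4 were tested. KNAT5 was at 16.8 to 38.0 in the suspensor and 3.50 to 11.0 in the embryo proper, without overlap (log2 -1.80, limma adjusted p = 0.000435), and KNAT4 was higher in the embryo proper (log2 1.35, limma adjusted p = 0.00343). KNAT7, named after its values were seen, was at 0.41 to 5.41 in the apical cell and at most 0.08 in the embryo proper. Embryo proper less apical cell was -1.65 (limma adjusted p = 0.000699). KNAT7 reached an FPKM of 1 in the embryo of 2 cells alone, so this call follows in part from the filter.

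Of 5 other boundary genes, LAS and LOB were at 0 in all libraries, and JLO, an LBD gene of organ boundaries, was the 1 tested. JLO reached an FPKM of 1 only in the 3 apical cell libraries with a Ler mother and passed the filter through them. Its calls thus follow in part from the filter. JLO gave -1.07 for embryo proper less apical cell (limma adjusted p = 0.000622). It was higher in the apical cell than in its sister (log2 0.98, limma adjusted p = 0.00191), and within the apical cell it was at 0, 0.84 and 0 with a Col mother and at 3.95, 2.28 and 2.06 with a Ler mother (log2 -1.58, limma adjusted p = 0.014). BELL proteins are the partners that carry KNOX proteins into the nucleus. Of 13 BELL genes, 2 were tested and 9 stayed under 1 in all libraries. BEL10 had the highest mean among them in any cell type, at 2.31 in the suspensor, and was not called, and BLH3, named after its values were seen, was lower in the apical cell than in its sister (log2 -1.36, limma adjusted p = 0.0115).

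Of the 4 other NAC genes with a miR164 site, NAC080 and NAC100 were at 0 in all libraries and NAC6 had a mean of at most 0.01. NAC1, a gene of lateral root formation whose site pairs at 19 of 21 positions, was at 0.04 to 3.98 in the suspensor and 0.31 to 1.72 in the embryo proper and was not called in any of the 4 comparisons of cell types. Of 5 CIN-type TCP genes, which hold back CUC genes in leaves, TCP4 alone was tested, had a mean of at most 1.45 and was not called.

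**Figure D5:**
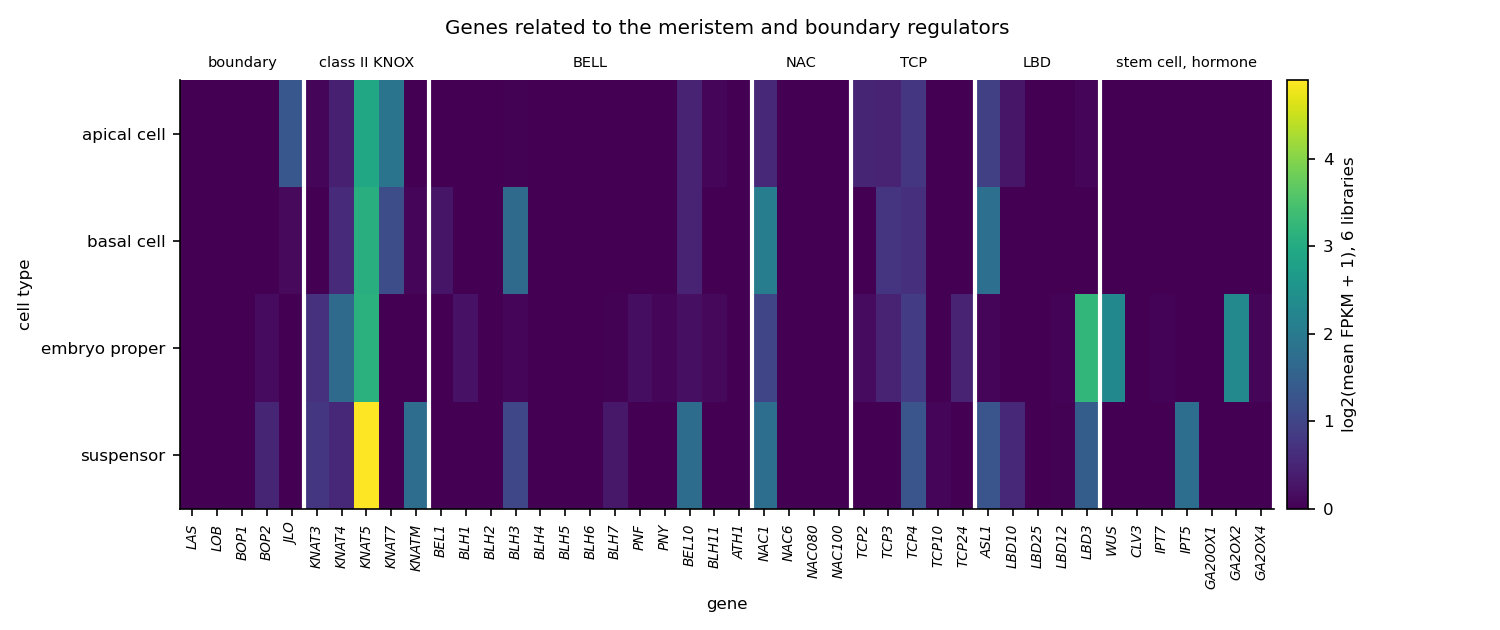
Mean FPKM over 6 libraries of 44 related genes, columns by list, in the 4 cell types, rows, as log2(mean FPKM + 1) from dark (0) to yellow. WUS, GA2OX2 and LBD3 are bright in the embryo proper, KNAT5 is brightest in the suspensor, and most BELL columns are dark.

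The loci whose log2 values ran most like those of each tested gene over the 24 libraries were taken as a description. For CUC2 they were NIA2, a nitrate reductase (Pearson r = 0.996), AT4G37080 and AT5G02440, and for CUC1 ZW9 (r = 0.995), AT1G32470 and HYH, a bZIP factor of light signalling. All of these rest on the contrast of the 6 embryo proper libraries with 18 values at or near 0. For CUC3 they were SHI (r = 0.891) and STY1, RING-finger regulators of auxin synthesis, with AT3G60670, and STY1 was at a mean of 5.04 in the apical cell and 12.0 in the embryo proper. For AS2 they were MSD1, a mitochondrial superoxide dismutase (r = 0.930), AT5G38310 and RLP15. No locus exceeded r = 0.791 (SNL3) for AS1 or 0.738 (AT4G17370) for KNAT6.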

How the data were processed

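RNA was measured in 24 libraries of 8 groups, from mRNA turned into cDNA with SMART-Seq low-input chemistry, per the labels' protocols. The deposited FPKM values, 1 per locus and library with 2 decimals, were made by the authors. TopHat2 2.1.1, RSEM (no version given) and the TAIR10 genome are named per the submitters' processing notes, without their roles. TAIR10 is a Col genome, both crosses carry both alleles, and parental alleles were not analysed here. Counts were not used, and strand, mapping of shared reads and depth are not given in the sources used here. SMART-Seq amplification of few cells can lose rare transcripts, so a listed 0 does not show that a gene is silent.

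Loci at an FPKM of 1 or more in 3 or more libraries (18206 of 32399) were fitted as log2(FPKM + 1) with limma 3.58.1 in R 4.3.3, as 8 group means in 1 fit of all libraries with a mean-variance trend, and p-values were adjusted by Benjamini-Hochberg over all tested loci with a threshold of 0.05. The fit was tested on simulated data. Members and gene lists were chosen with earlier results of these data known. Beside the 9 members, up to 3 genes of each list were named, those called with the largest difference between embryo proper and suspensor or else that with the highest mean, and exceptions are stated. The 3 loci most like each tested member by Pearson r were named. The contrasts of cross differences between cell types, and the values of reference, ACT1 and miR164 loci, were added after the values were seen.

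Names matched 31912 loci in the RefSeq TAIR10.1 gene table, and all 44 list genes. Sequences and gene positions come from that assembly, which keeps the TAIR10 nuclear coordinates. miR164 pairing was scored without gaps over 21 bases, taking the best window over the transcripts of each locus and counting G:U as a mismatch. Depth was estimated from the FPKM of single-model loci near their lowest values, times transcript length. Alternatives were a pseudocount of 0.1 or 5, a filter at FPKM 5 or none, TPM, quantile and median-ratio scaling, library weights and no trend. Others were the kit wording as a covariate or its 4 libraries left out, only the groups compared, and the replicate number as a block. The last were each cross alone, as contrasts in the fit of all libraries, and each library left out. Python 3.11.15 (matplotlib 3.10.9, scipy 1.17.1, pandas 2.3.3, numpy 2.4.6) served for tables and plots.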

Additional observations from a re-analysis of the deposited data

Results flagged for a closer look

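Within the 6 libraries of a cell type, single values stood far from the others for 5 sets of values, by Dixon's criterion. In 4 of the 5 any value above 0 would have met it, since the other 5 libraries were at 0, so the rate of about 1 in 20 groups that chance gives does not hold for them. They were CUC3 at 0.04 in 1 suspensor library, STM at 0.08 and KNAT1 at 0.02 each in 1 embryo proper library, and AS2 at 0.17 in 1 apical cell library. AS2 at 0.40 in embryo proper Col replicate 1 stood apart from 5 libraries between 0 and 0.12. All 5 values are below the filter.

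The difference between the lineages was not the same at both stages, by the interaction in limma, for CUC2 (3.99), CUC3 (2.41), CUC1 (1.65) and AS2 (-2.23). For CUC1 and CUC2, found in the embryo proper alone, this repeats the difference between embryo proper and suspensor. It follows in part from the filter. The cross difference of KNAT6 differed between the basal cell and the suspensor (-5.11), which rests on a contrast added after the values were seen and on the suspensor, where replicates vary most.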

How the results depend on the processing

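Of 23 called results, 13 kept direction and call under all alternatives run, and of 20 results given as not called, 12 stayed so. The count of called genes for apical against basal cell fell from 2 to 1 at a pseudocount of 5 and within the Ler cross and to 0 within the Col cross, and rose to 3 (CUC3 added) at a pseudocount of 0.1 and without apical cell Col replicate 3. For suspensor against basal cell it rose from 1 to 2 at a pseudocount of 0.1, with quantile normalization and within each cross, and was 1 to 3 with single libraries left out, KNAT6 or AS1 being added. For apical cell against suspensor it fell from 2 to 1 with library weights and within the Ler cross and rose to 3 within the Col cross (KNAT6) and without suspensor Col replicate 1 (AS1). For embryo proper against basal cell it was 4 to 6 against 5, and for the interaction from 4 to 1 within the Ler cross. For the crosses in the basal cell it was 0 without the 4 libraries of the other kit wording. For the crosses in the suspensor it rose from 0 to 1 (KNAT6) at a pseudocount of 5, with a filter at FPKM 5, with median-ratio scaling, with no trend, with the kit wording as a covariate and without those 4 libraries, and was 0 to 1 with single libraries left out. The contrasts within a cross draw on fewer groups of the same fit of all libraries. The causes of these changes were not tested.

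The results that changed sign were not called in the fit reported. Within the Ler cross KNAT6 gave -0.72 for apical against basal cell, 0.41 for embryo proper against suspensor, -0.60 for embryo proper against apical cell, -1.73 for suspensor against basal cell, 1.02 for apical cell against suspensor and -1.32 for embryo proper against basal cell. KNAT6 in embryo proper against suspensor was also 0.18 at a pseudocount of 0.1 and 0.11 without the 4 libraries, and ran from -0.495 to 0.11 with single libraries left out. AS1 in embryo proper against apical cell was -0.029 at a pseudocount of 5, -0.044 with TPM scaling and -0.14 within the Ler cross, and ran from -0.23 to 0.38 with single libraries left out. CUC3 in suspensor against basal cell was 0.019 within the Ler cross.

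Replicate numbers did not pair the libraries: the deviations of same-numbered libraries correlated at -0.18 to 0.30 with a median of 0.0047, above 0.1 in 3 of 84 pairs, and 8 of 24 libraries were closest to their own number. With the replicate block no call changed, and KNAT6 between the crosses in the basal cell had a limma adjusted p of 0.00525. TPM scaling moved the median locus by up to 0.18 and median-ratio scaling by up to 0.12 on the log2 scale, against 3.99 for CUC2. The alternatives were run for the 9 genes and not for the related genes. Depth was estimated, and amplification from few cells leaves low values such as those of KNAT2 near its limit.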

Other observations

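Of the related genes, 3 stood high in 1 suspensor library and not in the others. KNATM, a KNOX relative without a homeodomain, was at 14.2 in suspensor Ler replicate 1 and at 0 in the other 5. IPT5, a cytokinin synthesis gene, was at 14.6 in suspensor Ler replicate 3 and at 0 in the other 5. LBD3 was at 10.4 in suspensor Ler replicate 2 and at 0 in the other 5. A different library was high for each gene, and all 3 had a Ler mother.

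ASL1, a close relative of AS2, was named after its values were seen. It was at 0 in 5 of 6 embryo proper libraries and at 0.28 in the other, and its mean was 2.45 in the basal cell. Embryo proper less basal cell was -1.47 (limma adjusted p = 0.0109).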
